A study of Homo sapiens with 4 samples.

Results

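The leading chromatin loop hubs of SW620 colorectal cancer cells were described and set against the same genome positions in HCT116, LS513 and SW480 cells. A loop is a pair of anchors, stretches of DNA that were found ligated to each other, and its strength is the number of paired-end tags (PETs) that join them. For each of the 22207 SW620 anchors in the filtered loop table, the PETs of all its loops were summed and the partner anchors joined to it by 2 or more PETs were counted. The 20 anchors with the largest PET sum and the 20 with most partners made up 35 leading anchors, since 5 were in both groups. Leading anchors with midpoints within 500 kb of each other were joined into 1 locus, which gave 25 hub loci. The other libraries brought the number of anchors in the series to 67280.

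All 4 lines were established colorectal cancer lines obtained from ATCC, were left untreated and were profiled as 1 H3K27ac HiChIP library each. Per the labels, SW620 was a Dukes' type C colorectal adenocarcinoma line. HCT116 was a colorectal carcinoma line, LS513 a Dukes' type C colorectal carcinoma line and SW480 a Dukes' type B colorectal adenocarcinoma line. SW620 and SW480 are known to stem from a metastasis and the primary tumour of the same patient. In HiChIP, cells are fixed with formaldehyde (1% here), the DNA is cut (here with MboI), filled in with biotin and ligated in the nucleus, and fragments bound to the chosen protein are pulled down, in this case histone H3 acetylated at lysine 27.

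H3K27ac marks active promoters and enhancers, so HiChIP for this mark lists contacts among active regulatory elements. A hub is an anchor that takes part in many such contacts. Promoters of strongly used genes and clusters of enhancers are typical hubs. In colorectal cancer, the WNT pathway is usually switched on by mutation, and β-catenin with TCF factors then drives target genes that include feedback inhibitors of the pathway itself, such as AXIN2 and NKD1.

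Genes are named from general knowledge of the hg19 map, because no hg19 annotation was used here. All 78 gene names checked were found on the stated chromosome in a RefSeq gene table of another build, GRCh38.p14. Exons, introns and untranslated regions were not assigned. Coordinates below are hg19, as in the deposited tables, and no anchor sequence was read.

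The anchor with most partners in SW620, on chromosome 19 from 13943213 to 13978438, holds the cluster of MIR23A, MIR27A and MIR24-2, which are cut from 1 primary transcript. The main mature products are shown to tell apart the microRNAs of that hub, with the seed (bases 2 to 8, which pair with target messenger RNAs) in capitals. The sequences are from RefSeq, build GRCh38.p14, and the 3 seeds differ from each other.
hsa-miR-23a-3p: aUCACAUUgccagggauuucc
hsa-miR-27a-3p: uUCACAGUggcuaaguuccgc
hsa-miR-24-3p: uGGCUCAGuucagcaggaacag

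The HES1 anchor on chromosome 3 (193849348 to 193868779) ranked 3 by partners. HES1 is a transcriptional repressor and the classic target of Notch signalling, which acts through the DNA-binding factor RBPJ. Its promoter, 250 bases before to 50 after the RefSeq start in build GRCh38.p14, lies in that anchor and is printed on the strand of the gene because it is the promoter at a hub with many weak loops. The only match to the RBPJ core GTGGGAA on either strand is in capitals and starts at base 166. Of 35116 RefSeq promoters of the same length, 6.25% held that motif on either strand.
HES1 promoter: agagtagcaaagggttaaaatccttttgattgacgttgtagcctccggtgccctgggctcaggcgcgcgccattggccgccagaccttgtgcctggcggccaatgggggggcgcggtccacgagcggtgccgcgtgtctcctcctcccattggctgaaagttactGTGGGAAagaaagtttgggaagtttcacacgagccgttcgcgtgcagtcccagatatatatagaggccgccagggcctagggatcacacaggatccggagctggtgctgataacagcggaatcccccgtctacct

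The libraries differed in depth and in their anchors. Filtered tables held 152421 PETs in SW620, against 81579 in HCT116, 222113 in LS513 and 13885 in SW480. PETs were therefore divided by the filtered total and multiplied by 1000000, which gives the normalised PETs used below. A count of 3, used as the floor for a count of 0, came to 19.7 normalised PETs in SW620, 36.8 in HCT116, 13.5 in LS513 and 216 in SW480. Of the SW620 anchors, 6.09% were identical to an HCT116 anchor. By contrast, 96.3% of the HCT116 anchors were identical to an LS513 anchor, so these libraries do not give independent anchor sets. With 1 library per line there was no replicate check and no significance test. Intervals are exact conditional 95% intervals of the ratio of counts. PETs carried no molecular identifiers, so intervals and floors cover counting error only. A ratio of 2 or more, or its inverse, is called below. In bulk libraries, more cells with a contact and more contacts per cell cannot be told apart.

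PET sums and partner numbers chose the hubs and are given as a description. The leading anchors held a median of 221 PETs, ranging between 116 and 585, and a median of 20 partners, ranging between 5 and 29. Over all SW620 anchors the medians were 6 PETs and 1 partner. The ranks diverged at the extremes. The strongest anchor, 585 PETs at NKD1, had 10 partners and ranked 409 by partners, while the MIR23A anchor with its 29 partners had 168 PETs and ranked 59 by PETs. By PETs, the last anchor inside the choice had 219, at TPSAB1. The next had 216, at MAFG, which entered through its partners, and the first left out, on chromosome 8 from 37445925 to 37490237, also had 216. By partners, the last inside had 19 partners and 283 PETs, and the first outside, on chromosome 17 from 70565098 to 70640132, had 19 partners and 207 PETs.

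**Figure D1:**
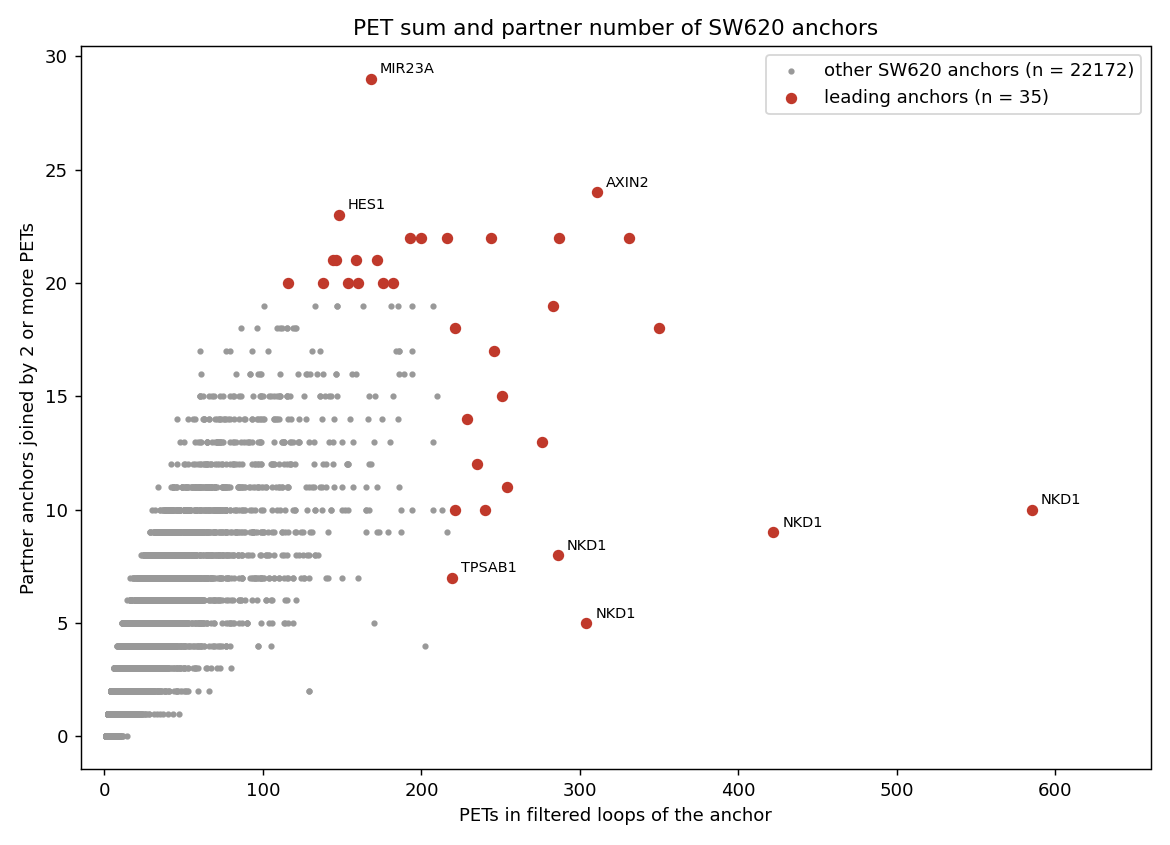
Each point is 1 SW620 anchor, with the PETs of its filtered loops on the horizontal axis and the number of partner anchors joined by 2 or more PETs on the vertical axis. Red points are the 35 leading anchors and grey points all other SW620 anchors. The NKD1 anchors lie far to the right with 5 to 10 partners, and the MIR23A anchor lies highest with 29 partners at 168 PETs.

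Chromosomes 17, 16 and 11 held most of the leading anchors, with 12, 8 and 6 of the 35. That was 34.3%, 22.9% and 17.1% of the leading anchors, against 6.39%, 4.70% and 6.13% of all SW620 anchors. The other 9 were on chromosomes 12, 3, 19, 1 and 20. Among the 672 SW620 anchors with at least 66 PETs, the number needed to reach a ratio of 2 over a count of 0 in SW480, the shares were 15.2%, 10.3% and 11.8%.

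Leading anchors were long, with a median of 28.8 kb, against 18.5 kb for anchors with at least 66 PETs and 4.54 kb for all SW620 anchors. A ranking by PETs and partners per kb kept only 3 of the 35. Per kb they held a median of 8.69 PETs, against 5.45 for anchors with at least 66 PETs and 1.24 for all anchors. This measure uses the PETs that chose the hubs. PETs that joined an anchor to itself, which the choice did not use, had a median of 436 at leading anchors. It was 207.5 at anchors with at least 66 PETs and 13 over all anchors. Interchromosomal PETs, also unused, had a median of 41 at leading anchors, 21 at anchors with at least 66 PETs and 3 over all anchors. The 1420 interchromosomal pairs of leading anchors had at most 3 PETs each, while the highest pair of the library had 26. None of the hub pairs was thus above 3 PETs.

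The leading anchors took part in 998 loops with 6941 PETs, or 4.55% of the filtered PETs. The span between anchor midpoints, weighted by PETs, had a median of 77.9 kb at the hubs and 67.7 kb over all loops. Single-PET loops made up 40.9% of the hub loops and 61.9% of all loops. In the authors' deposited table, 476 hub loops (47.7%) had a false discovery rate under 0.01, against 17.2% of all loops, and that rate depends in part on the PET counts that chose the hubs. Leading anchors were also joined to each other. There were 19 such loops with 1326 PETs, of which 6 loops with 680 PETs linked the NKD1 anchors.

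SW620 had the highest normalised PETs of the 4 lines at 17 of 35 leading anchors (48.6%) and at 40.3% of the anchors with at least 66 PETs, mostly by less than 2 times. Only 1 of 35 leading anchors (2.86%), at TPSAB1, held at least 2 times the normalised PETs of every other line, and none was at least 2 times below all of them. Over all SW620 anchors 0.829% were called higher and 1.35% lower. Among those with at least 66 PETs it was 12.9% higher and 0.595% lower. Leading anchors were thus called higher than all other lines less often than anchors of at least 66 PETs, and this difference has no test.

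Line by line, 10 leading anchors (28.6%) were called higher than HCT116, against 31.4% of anchors with at least 66 PETs and 16.5% of all anchors. For LS513 it was 7 (20%), against 31.8% and 28.3%. For SW480 it was 17 (48.6%), against 56.1% and 3.01%, with 66 PETs or more required where SW480 had none. The 6 anchors called higher than both HCT116 and LS513 (17.1%, against 24.6% and 11.9%) were the 4 NKD1 anchors, TPSAB1 and the second AXIN2 anchor. No leading anchor was called lower than HCT116 or LS513, against 3.12% and 2.98% of anchors with at least 66 PETs and 14.3% and 14.9% of all anchors. Below SW480 there were 3 (8.57%, against 15.9% and 11.1%), at PHLDA1 and at both AXIN2 anchors. The shares of leading anchors called were thus all below those of anchors with at least 66 PETs, with no test of the difference. Choosing anchors for high SW620 counts favours high ratios in both sets.

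**Figure D2:**
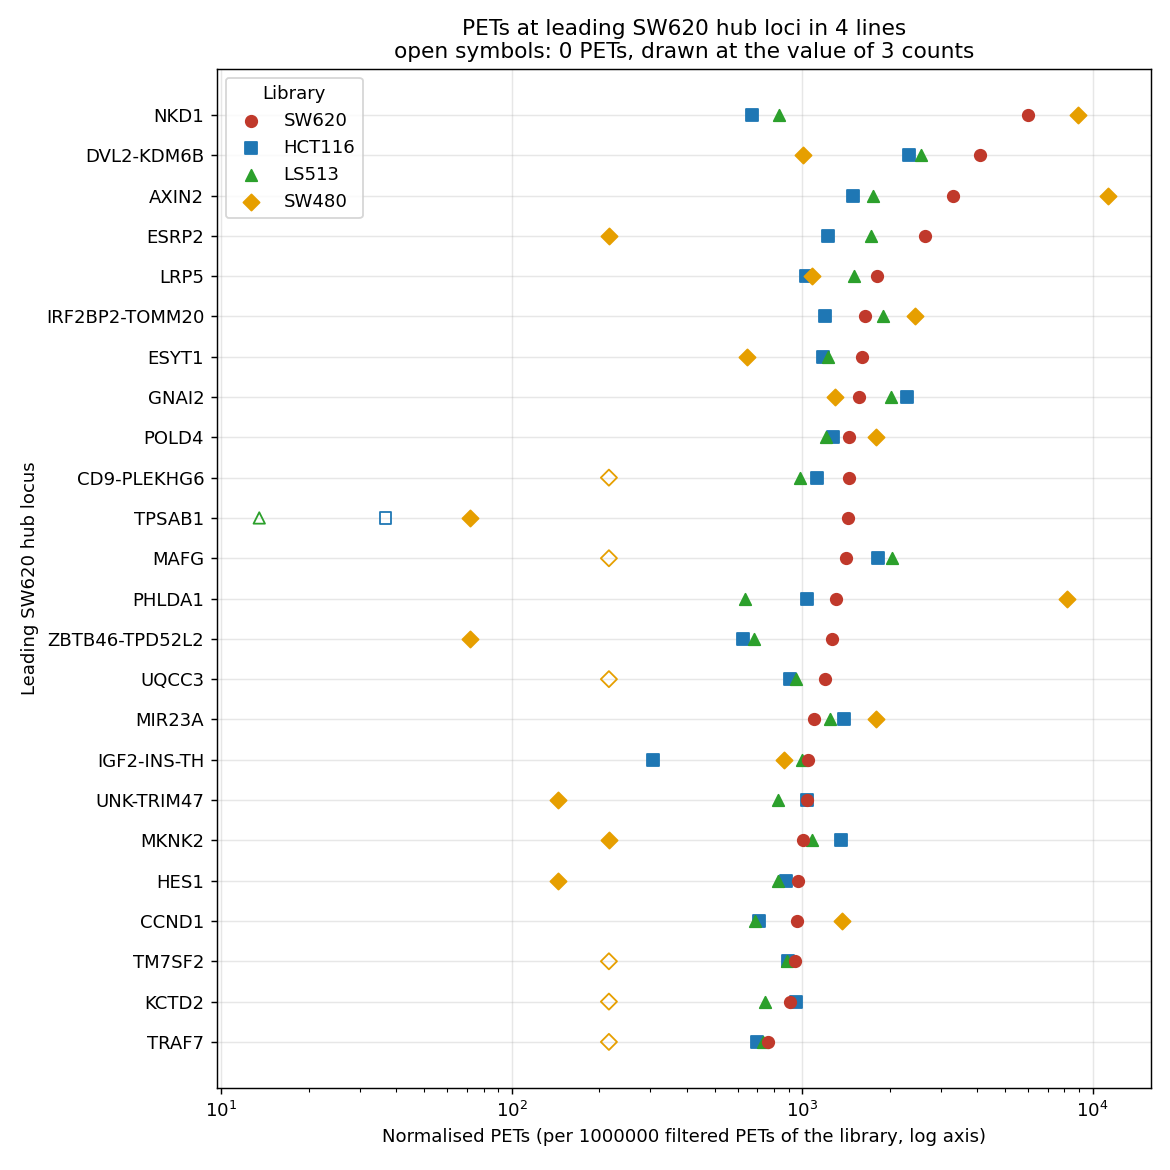
Normalised PETs (log axis) of 24 hub loci, from the largest SW620 PET sum at the top to the smallest at the bottom, in SW620 (circles), HCT116 (squares), LS513 (triangles) and SW480 (diamonds). Open symbols are counts of 0 drawn at the value of 3 counts. HCT116 and LS513 lie far left of SW620 at NKD1 and TPSAB1, and SW480 lies right of SW620 at NKD1, AXIN2 and PHLDA1.

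Of the hubs at WNT pathway genes, NKD1 was the largest. NKD1 binds Dishevelled and dampens WNT signalling as a feedback inhibitor. The locus on chromosome 16 had 4 leading anchors between 50400413 and 50598111. The first holds the promoter of BRD7, a bromodomain protein, the last holds the NKD1 promoter, and the others lie between. With each loop counted once, it held 917 PETs in SW620, against 55 in HCT116, 185 in LS513 and 124 in SW480. Normalised, this was 6016 in SW620, 674 in HCT116, 833 in LS513 and 8931 in SW480. SW620 and SW480 were both far above the other lines. The ratio of SW620 was 8.92 to HCT116 (interval 6.79 to 11.9), 7.22 to LS513 (6.16 to 8.51) and 0.674 to SW480 (0.558 to 0.819).

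The 4 strongest loops of the locus joined its leading anchors to each other. The strongest, 83.6 kb between the second anchor (50477903 to 50516519) and the NKD1 promoter anchor (50563592 to 50598111), had 210 PETs in SW620, 2 in HCT116, 20 in LS513 and 41 in SW480. Next came 150 PETs between the first and second anchors, with 5 in HCT116, 18 in LS513 and 19 in SW480. Between the second anchor and the one from 50528130 to 50545357 there were 148 PETs, with 6 in HCT116, 21 in LS513 and 23 in SW480. A broad anchor of another line can match more than 1 SW620 loop, so the matched counts are not additive. That anchor was joined to the promoter anchor by 73 PETs in SW620, none in HCT116, 4 in LS513 and 15 in SW480. All 4 loops had more normalised PETs in SW620 than in HCT116 and LS513. Against SW480 the order differed. The loop of 210 PETs was 1378 normalised PETs in SW620 and 2953 in SW480, and that of 148 PETs was 971 in SW620 and 1656 in SW480.

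Self-ligated PETs of the NKD1 anchors gave ratios of SW620 of 9.17 to HCT116, 4.78 to LS513 and 0.800 to SW480, in the same order as the loop PETs. Chromosome 16 held 7.05% of the filtered PETs in SW620, 5.45% in HCT116, 5.72% in LS513 and 2.08% in SW480. Scaled to the PETs of chromosome 16 alone, the NKD1 ratio was 6.90 to HCT116, 5.86 to LS513 and 0.199 to SW480. Gene copies and H3K27ac level were not measured, and their part in these ratios was not tested.

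AXIN2 is a scaffold of the complex that degrades β-catenin and a direct WNT target. Its leading anchors on chromosome 17 lie side by side, from 63552805 to 63570823 with the AXIN2 promoter and from 63571905 to 63594479, and they had 22 and 24 partners. The locus held 505 PETs in SW620, 122 in HCT116, 391 in LS513 and 157 in SW480. That was 3313 normalised PETs in SW620, 1495 in HCT116, 1760.4 in LS513 and 11307 in SW480. SW620 was thus above HCT116 by a ratio of 2.22 (interval 1.81 to 2.72) and LS513 by 1.88 (1.65 to 2.15), and below SW480 at 0.293 (0.244 to 0.353). In SW480 an anchor overlapping this locus had the largest PET sum of its whole library.

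The loop between the AXIN2 anchors, 21.4 kb long, had 137 PETs in SW620, 16 in HCT116, 63 in LS513 and 44 in SW480. A longer loop from the second anchor to 63685426 to 63712516 had 23 PETs in SW620, 1 in HCT116, 4 in LS513 and 20 in SW480. Against that, loops of both anchors to 63620599 to 63627377, with 34 and 30 PETs in SW620, had 6 and 8 in HCT116, 23 and 32 in LS513 and none in SW480. A count of 0 in SW480 allows up to 216 normalised PETs. The neighbouring anchor, from 63628398 to 63636183, was joined to the second AXIN2 anchor by 7 PETs in SW620 and 3 in SW480. To the first it was joined by 3 in SW620 and none in SW480. HCT116 and LS513 had the same matched counts there as above, so these counts depend on where anchor borders lie.

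DVL2 encodes a Dishevelled protein, which passes the WNT signal from receptor to destruction complex, and KDM6B removes methyl groups from lysine 27 of histone H3. Of the 3 leading anchors of this locus on chromosome 17, between 7135340 and 7751102, the first lies at DVL2 and the last at KDM6B. The middle one, from 7337681 to 7351953 with 172 PETs in SW620, lies at neither gene. All 3 anchors lie in a gene-dense stretch, and they had 36 distinct partner anchors, leading ones of the locus left out. They held 625 PETs in SW620, 190 in HCT116, 570 in LS513 and 14 in SW480. SW620 was above the other lines, with ratios of 1.76 to HCT116, 1.60 to LS513 and 4.07 to SW480 (interval 2.41 to 7.48). The SW480 ratio was 1.31 in self-ligated PETs. The KDM6B anchor, from 7735995 to 7751102, had 176 PETs in SW620, 59 in HCT116, 143 in LS513 and none in SW480.

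LRP5, a WNT co-receptor on chromosome 11, had an anchor from 68062681 to 68107051 with 276 PETs in SW620, 84 in HCT116, 334 in LS513 and 15 in SW480. Its ratio was 1.76 to HCT116, 1.20 to LS513 and 1.68 to SW480. CCND1 encodes cyclin D1, which drives cells into S phase. Its anchor on the same chromosome (69447898 to 69462697) had 146 PETs in SW620, 58 in HCT116, 153 in LS513 and 19 in SW480, and ratios of 1.35 to HCT116, 1.39 to LS513 and 0.700 to SW480. None of these ratios was called, and with scaling per chromosome LRP5 turned to 0.891 against LS513 and CCND1 to 0.975 against HCT116. Some alternatives added calls. CCND1 was 0.498 to SW480 with scaling per chromosome. LRP5 to HCT116 was 2.31 in self-ligated PETs, 2.05 with a stricter overlap and 2.46 with loops matched at both anchors. Matched loops also gave LRP5 4.19 to SW480. Of a list of 14 WNT genes, 3 (NKD1, AXIN2 and CCND1) were counted at a leading locus. ASCL2, which is on the WNT and the epithelium list, lies at a partner anchor of the IGF2-INS-TH hub and was not counted. None of 14 intestinal transcription factors lay at a leading locus. Of 14 markers of colorectal epithelium AXIN2 did, and of 8 markers of blood, endothelium and mesenchyme none did. The lists were checked at the leading loci only, so there is no share over other anchors to set these counts against.

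PHLDA1 encodes a pleckstrin homology-like protein that has been used as a marker of intestinal stem cells. The hub anchor on chromosome 12, from 76321053 to 76381892, lies beside the gene, and its strongest partner, from 76410492 to 76430798, covers it. The anchor held 200 PETs in SW620, 85 in HCT116, 141 in LS513 and 113 in SW480. After scaling this was 1312 in SW620, 1042 in HCT116, 635 in LS513 and 8138 in SW480, the lowest ratio of SW620 to another line among the 25 loci, 0.161 (interval 0.127 to 0.205). An overlapping SW480 anchor ranked 2 in its library by PETs. The ratio to LS513 was 2.07 (1.66 to 2.58), but 1.07 with all libraries thinned to the depth of SW480 and 1.56 with scaling per chromosome. The loop to the gene itself had 64 PETs in SW620, 20 in HCT116, 52 in LS513 and 23 in SW480.

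**Figure D3:**
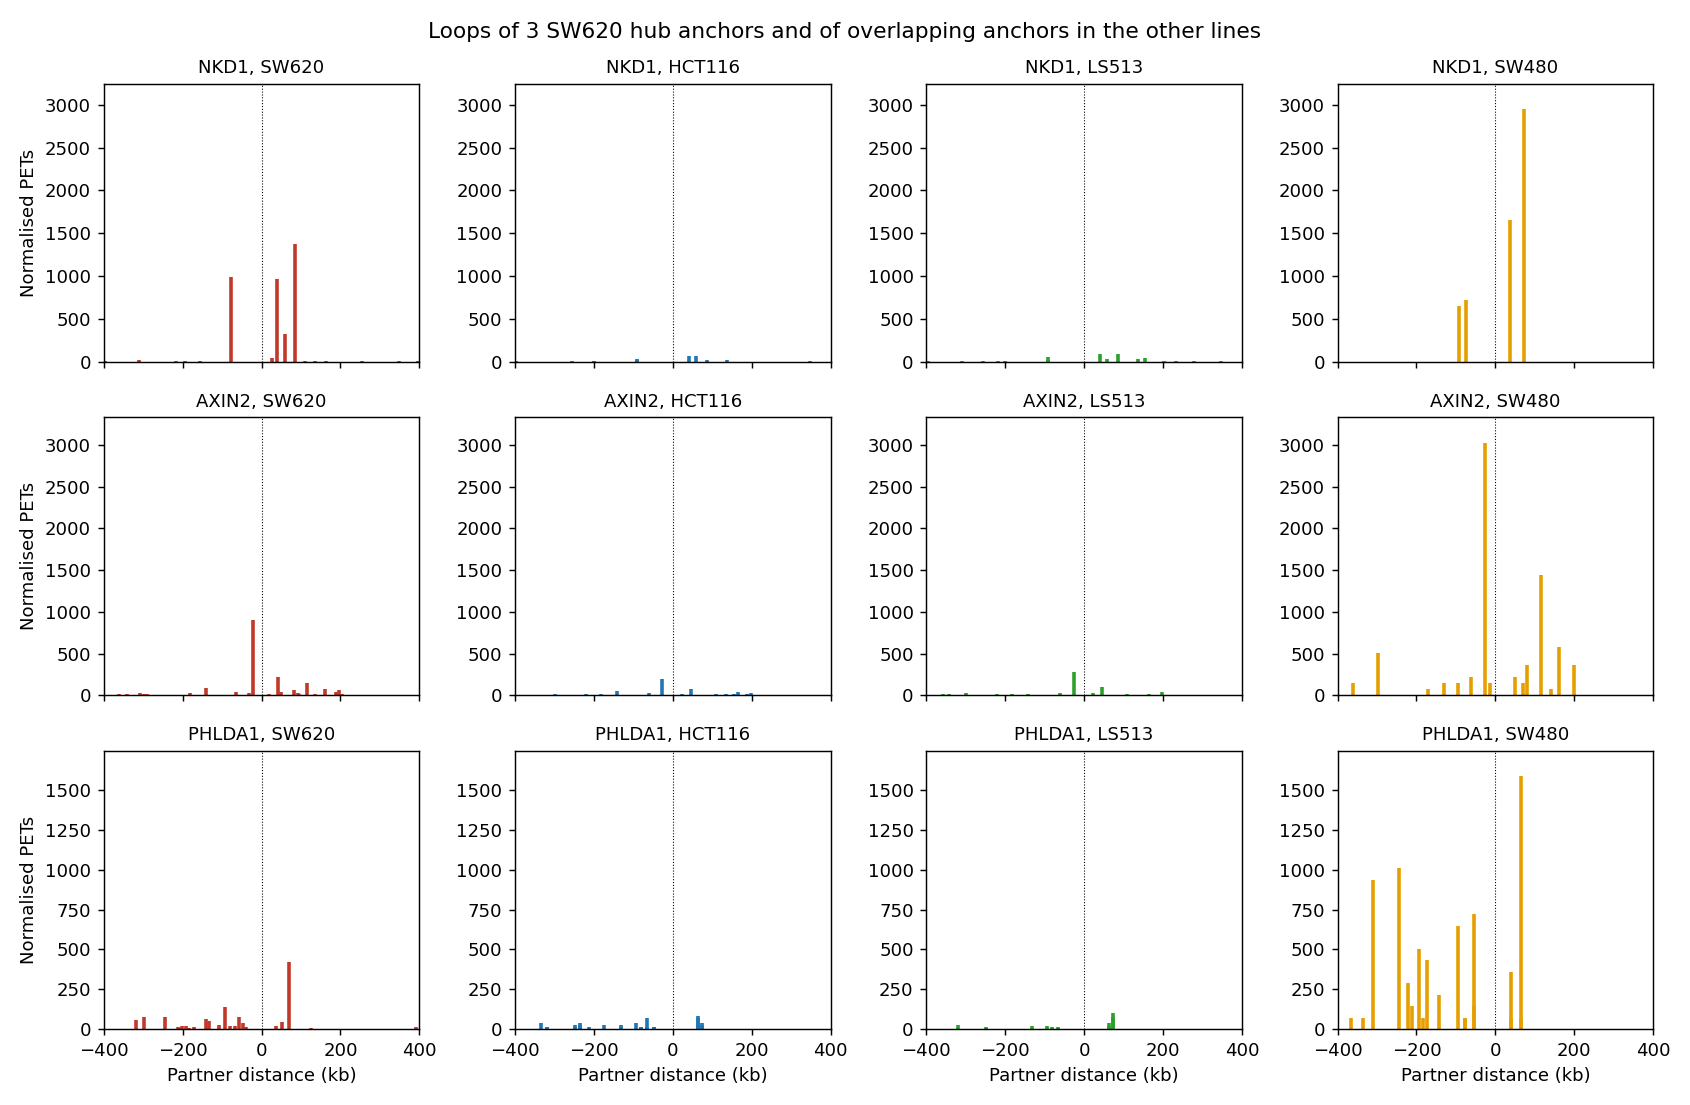
Normalised PETs of each loop (vertical axis, same scale along a row) by the distance of the partner from the hub anchor's midpoint in kb, for 1 hub anchor each of NKD1, AXIN2 and PHLDA1 (rows) in SW620, HCT116, LS513 and SW480 (columns). At NKD1 tall loops stand in SW620 and SW480 only, within 100 kb of the anchor. At PHLDA1 many SW480 loops are taller than those of SW620, at 1 PET per 72.0 normalised PETs in SW480.

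At the tryptase genes of chromosome 16, TPSAB1, TPSB2 and TPSD1, which are known from mast cells, the anchor from 1293154 to 1298590 held 219 PETs in SW620. HCT116 and LS513 had no overlapping anchor in any table and thus 0 PETs, and SW480 had 1 PET. With these set to the floor of 3 counts per library, the ratio of SW620 was 39.1 to HCT116 and 106 to LS513. Both ratios depend on the floor, since without an anchor no PETs could be counted there. The lower limits of the intervals were 31.5 and 85.8. With all libraries thinned to the depth of SW480, where SW620 has fewer PETs, the ratio to the floor was 7.67 against each. The ratio to SW480 rests on its 1 PET and was 19.95 (interval 3.54 to 792), or 5.89 with scaling per chromosome and 5.62 with loops of at least 2 PETs. In SW620, 182 of the 219 PETs (83.1%) lay in 1 loop to the anchor from 1257783 to 1277238, at the end of the calcium channel gene CACNA1H. The anchor had 18 self-ligated PETs, the lowest of the 35, and 12.2 loop PETs per self-ligated PET, against a median of 0.562 at leading anchors. It had 7 partners, and it entered the choice by PETs alone.

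The hubs at ESRP2 and beside CD9 were next. ESRP2 is an epithelial regulator of splicing, and its 2 anchors on chromosome 16 (68258416 to 68275169 and 68277547 to 68310129) held 405 PETs in SW620, 100 in HCT116, 382 in LS513 and 3 in SW480. Normalised values were 2657 in SW620, 1226 in HCT116, 1719.8 in LS513 and 216 in SW480. SW620 was highest, with ratios of 2.17 to HCT116 (interval 1.74 to 2.73), 1.54 to LS513 and 12.3 to SW480 (4.18 to 59.9). Scaling per chromosome gave 1.68 to HCT116, 1.25 to LS513 and 3.63 to SW480. The SW480 ratio was 3.87 in self-ligated PETs, and the HCT116 ratio was 3.80 after thinning to the depth of SW480. CD9, a tetraspanin of the cell surface, and PLEKHG6 flank an anchor on chromosome 12 (6370063 to 6399020) with 221 PETs in SW620, 92 in HCT116, 219 in LS513 and none in SW480. More than any other locus but TPSAB1, it rested on 1 loop (53.4% of its PETs), which had 118 PETs in SW620, 46 in HCT116, 118 in LS513 and none in SW480.

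ZBTB46, a zinc finger factor known from dendritic cells, and TPD52L2 lie at an anchor on chromosome 20 from 62461348 to 62498369. It held 193 PETs in SW620, 51 in HCT116, 152 in LS513 and 1 in SW480. SW620 was above every other line, by 2.03 over HCT116 (interval 1.48 to 2.81), 1.85 over LS513 (1.49 to 2.30) and 17.6 over SW480 (3.12 to 698). The HCT116 ratio was 1.43 with scaling per chromosome and 1.82 in self-ligated PETs, and the SW480 ratio was 4.96 with loops of at least 2 PETs.

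Several hubs lay at or beside genes of general cell machinery. IRF2BP2, a transcriptional corepressor, and TOMM20, a receptor of mitochondrial import, flank an anchor on chromosome 1 (235088737 to 235138230) with 251 PETs in SW620, 98 in HCT116, 420 in LS513 and 34 in SW480. ESYT1, which tethers the endoplasmic reticulum to the plasma membrane, had 244 PETs in SW620, 96 in HCT116, 273 in LS513 and 9 in SW480 at its anchor on chromosome 12 (56507453 to 56526451). POLD4, a subunit of DNA polymerase delta, had 221 PETs in SW620, 104 in HCT116, 268 in LS513 and 25 in SW480 on chromosome 11 (67109671 to 67150801). Against HCT116 and LS513 all 3 had ratios between 0.871 and 1.37, and none was called. With scaling per chromosome, IRF2BP2-TOMM20 turned to 1.17 against LS513, ESYT1 to 0.980 against LS513, and POLD4 to 0.823 against HCT116 and 0.889 against LS513.

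GNAI2 encodes an inhibitory G protein subunit. Its anchor on chromosome 3, from 50272990 to 50312663, held 240 PETs in SW620, 187 in HCT116, 450 in LS513 and 18 in SW480, and SW620 was lower than HCT116 at 0.687 (interval 0.565 to 0.836) and than LS513 at 0.777 (0.662 to 0.911). Neither was called, and in self-ligated PETs the ratios were 1.22 and 1.64.

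Outside the loci with most PETs, those with the lowest ratio to the highest other line were, beside PHLDA1 and CCND1, MIR23A, MAFG and MKNK2. The MIR23A anchor held 168 PETs in SW620, 114 in HCT116, 277 in LS513 and 25 in SW480, with ratios of 0.789 to HCT116, 0.884 to LS513 and 0.612 to SW480. With scaling per chromosome these turned to 1.17 and 1.23 for HCT116 and LS513, with 0.215 to SW480, and loops matched at both anchors gave 3.83 to SW480. MKNK2 turned likewise, with 1.11 to HCT116 and 1.30 to LS513. Chromosome 19 held 6.85% of the filtered PETs in SW620, 10.2% in HCT116, 9.53% in LS513 and 2.41% in SW480. MAFG, a small MAF protein that pairs with stress response factors, had 216 PETs in SW620, 149 in HCT116, 453 in LS513 and none in SW480 on chromosome 17 (79858506 to 79900648). MKNK2, a kinase of the translation factor eIF4E, had 154 PETs in SW620, 111 in HCT116, 240 in LS513 and 3 in SW480 on chromosome 19 (2037733 to 2066522). These were hubs of HCT116 and LS513 as well. By PETs, an anchor at MAFG ranked 11 in HCT116 and 5 in LS513, and 1 at MKNK2 ranked 31 and 84.

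Among the other loci with ratios above 1 to HCT116 and LS513 were HES1, UQCC3 and TM7SF2. HES1 held 148 PETs in SW620, 72 in HCT116, 183 in LS513 and 2 in SW480. UQCC3, an assembly factor of respiratory complex III, had 182 PETs in SW620, 74 in HCT116, 212 in LS513 and none in SW480 on chromosome 11 (62431117 to 62441824). TM7SF2, a sterol reductase of cholesterol synthesis, had 144 PETs in SW620, 73 in HCT116, 197 in LS513 and none in SW480 on the same chromosome (64877849 to 64886289). Over HCT116 and LS513 the ratios of these 3 loci lay between 1.06 and 1.32, and none was called. With scaling per chromosome all turned below 1, with 0.935 to HCT116 and 0.938 to LS513 at HES1, 0.953 and 0.925 at UQCC3, and 0.764 and 0.788 at TM7SF2.

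IGF2, a fetal growth factor, INS, insulin, and TH, tyrosine hydroxylase, lie at an anchor on chromosome 11 from 2174050 to 2241028. Its values are given because its HCT116 ratio stood out once seen. It held 160 PETs in SW620, 25 in HCT116, 222 in LS513 and 12 in SW480, with ratios of 3.43 to HCT116 (interval 2.24 to 5.45), 1.05 to LS513 and 1.21 to SW480. With scaling per chromosome it turned to 0.777 against LS513 and 0.864 against SW480. The strongest loop reached the anchor at ASCL2 (2276984 to 2298828), a transcription factor of intestinal stem cells. That loop had 51 PETs in SW620, 11 in HCT116, 146 in LS513 and 9 in SW480.

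The remaining hubs, with 116 to 159 PETs in SW620, were UNK-TRIM47 (chromosome 17, 73807580 to 73876072), KCTD2 (chromosome 17, 73028929 to 73033920) and TRAF7 (chromosome 16, 2196433 to 2222101). Their ratios to HCT116 and LS513 lay between 0.947 and 1.27. TRAF7, a ubiquitin ligase, and KCTD2 had no PET in SW480. Over all 25 loci, SW620 was above HCT116 at 20, above LS513 at 20 and above SW480 at 17. With scaling per chromosome it was above HCT116 at 16, LS513 at 15 and SW480 at 16, and 20 of the 75 ratios of a locus to a line turned to the other side of 1, none of them a called one. TRAF7 was among them, with 0.843 to HCT116 and 0.841 to LS513. SW620 was called higher than HCT116 at 7 loci (28%), than LS513 at 3 (12%) and than SW480 at 14 (56%). It was called lower than SW480 at 2 (8%). No other loci were formed, so there is no share to set these counts against. Counts of 0 in SW480 stood at 6 loci, UQCC3, TM7SF2, CD9-PLEKHG6, TRAF7, KCTD2 and MAFG. All 6 are among the 14 called higher than SW480, with SW480 set to the floor. The calls of TPSAB1 over HCT116 and LS513 rest on the floor as well. SW480 had 13885 PETs and 6116 filtered anchors in all. Of the 6 loci, only TRAF7 had an overlapping SW480 anchor in any table, so at the others no PETs could be counted. No filtered SW480 anchor overlapped 22.9% of leading anchors, 35.9% of anchors with at least 66 PETs and 79.6% of all SW620 anchors.

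Self-ligated PETs, which join an anchor to itself, tracked the loop PETs at some loci and not at others. Over the 24 loci with self-ligated PETs in HCT116, the median ratio of SW620 was 1.56 for self-ligated and 1.30 for loop PETs. Over 24 in LS513 it was 1.65 and 1.23, and over 20 in SW480 it was 1.30 and 1.45. TM7SF2 stood apart, with self-ligated ratios of 0.310 to HCT116 and 0.308 to LS513 beside loop ratios of 1.06 and 1.07. IGF2-INS-TH had a self-ligated ratio of 4.74 to HCT116, and AXIN2 had 0.418 to SW480.

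**Figure D4:**
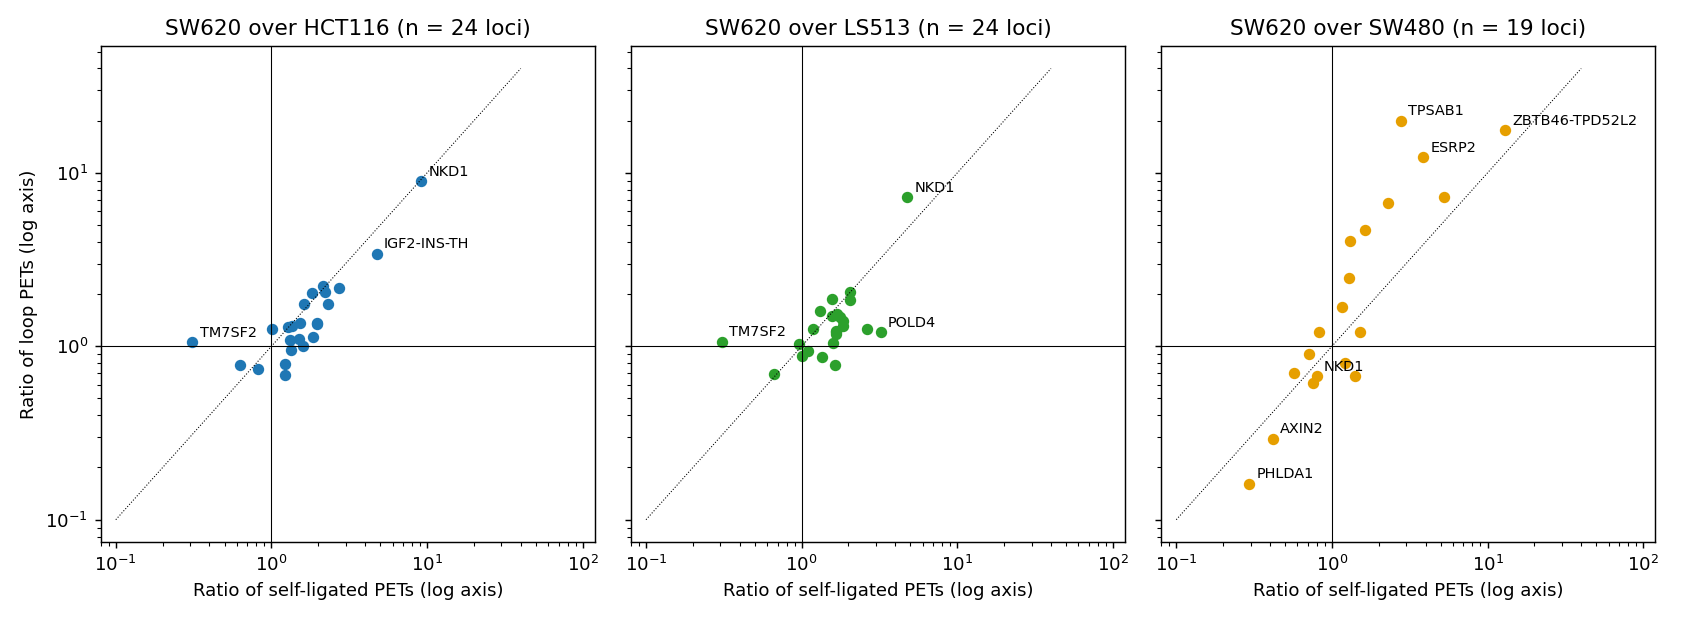
Ratio of SW620 to HCT116, LS513 and SW480 in self-ligated PETs (horizontal, log axis) and in loop PETs (vertical, log axis), with 1 point per hub locus that had both counts in the other line. The dotted line marks equal ratios. NKD1 lies near it against HCT116, at 9.17 and 8.92, while TM7SF2 lies far left at 0.310 with a loop ratio of 1.06.

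Partner numbers rise with depth, so SW620 and LS513 were also thinned to the 81579 PETs of HCT116. The leading anchors then had a median of 13 partners in SW620, against 10 at the best overlapping anchor of HCT116 and 10 in LS513. SW620 had more partners than HCT116 at 26 of 35 anchors and fewer at 7, and more than LS513 at 23 and fewer at 6. The second AXIN2 anchor had 19 partners in SW620, 6 in HCT116 and 10 in LS513. MIR23A had 20 in SW620, 22 in HCT116 and 20 in LS513. At NKD1 the partner numbers were close, with 4 to 7 in SW620, 3 to 6 in HCT116 and 3 to 9 in LS513, although the PETs differed. The anchors were chosen for high partner numbers in SW620, which favours SW620 in this count. The count was not made at other anchors, so there is no share over them to set it against.

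Leading anchors picked by the same rule in each other line overlapped those of SW620 in part. In HCT116 it was 5 of 31 (16.1%, and 14.3% of the SW620 ones), at GNAI2, DVL2-KDM6B, MAFG, MKNK2 and MIR23A. For LS513 it was 3 of 33 (9.09% and 8.57%), at MAFG, MKNK2 and MIR23A. In SW480 it was 5 of 28 (17.9% and 14.3%), at PHLDA1, NKD1 and AXIN2.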

How the data were processed

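Per the labels' protocols, 1 H3K27ac HiChIP library was made from each of 4 untreated lines. Per the submitters' processing notes, HiC-Pro and build hg19 (GRCh37) were used. Loop caller and peak caller: not given in the sources used here. PET counts per pair of anchors, as deposited, were whole numbers in tables of pairs within a chromosome (self-ligated pairs included), filtered pairs and interchromosomal pairs. A further deposited table, named for the mango model, adds a number between 0 and 1 per loop with no header, read as the authors' p-value adjusted to a false discovery rate. It did not fall steadily with PETs: its median in SW620 was 0.0350 for 1 PET, 0.0342 for 2, 0.382 for 3 and 0.000307 for 6 or more.

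Counts of filtered loops were summed per anchor on chromosomes 1 to 22 and X. Anchors of other lines overlapping a SW620 anchor or locus by at least 1 bp gave the value of that line, each loop counted once. Ratios of normalised PETs have exact conditional (Clopper-Pearson) 95% intervals, and a ratio of 2 was the threshold, with 0 set to 3 counts. Every hub locus is named, except 1 that is counted but not reported here. Values by line are given for the 10 loci with most PETs and the tie at that place, the 5 other loci with the highest and the 5 with the lowest ratio to the highest other line. IGF2-INS-TH was added after its values were seen. Members, lists and thresholds were chosen with earlier results of these data known. Calls were tested on simulated counts with the same anchors in every line, so differences of anchors between lines were not covered. Alternatives covered PETs per loop, the false discovery rate, scaling per chromosome, overlap, thinning, anchor length, fold and leaving out SW480. Scripts ran under Python 3.11.15 with scipy 1.17.1, pandas 2.3.3, numpy 2.4.6 and, for figures, matplotlib 3.10.9.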

Additional observations from a re-analysis of the deposited data

How the results depend on the processing

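No called ratio changed direction under any alternative run. Calls on a count of 0 could hardly do so, since that count stayed 0 in every alternative on loop PETs. Such calls were TPSAB1 over HCT116 and LS513 and the 6 loci with 0 PETs in SW480. The share of leading anchors called higher than every other line, 2.86%, became 17.1% without SW480 as a comparison line, 14.3% at a fold of 1.5, 8.57% with all libraries thinned to 13885 PETs, and 5.71% both with loops of at least 2 PETs and with a false discovery rate under 0.01. For all SW620 anchors the share of 0.829% became 0.347% with loops of at least 2 PETs, 0.270% with a false discovery rate under 0.01, 1.30% thinned, 11.9% without SW480, 1.84% at a fold of 1.5, 0.284% at a fold of 3 and 0.351% per kb of anchor. It was 12.9% over the anchors that could be called against 0 in SW480, an alternative chosen after seeing the data, as were the partner counts at equal depth and the self-ligated PETs. Of the 35 leading anchors, 23 were kept with partners at 1 or more PETs, 3 with a ranking per kb and 17 after thinning. The cause of these shifts was not tested.

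Of 75 ratios of a locus to a line, 26 were called. Scaling per chromosome ended 5 calls and added 3, and thinning ended 2 and added 5. Self-ligated PETs gave a value for only 68 of the 75 ratios. Those without a value were TPSAB1 over HCT116 and LS513, and UQCC3, TM7SF2, CD9-PLEKHG6, KCTD2 and MAFG over SW480. All of these were called ratios, so self-ligated PETs could not check them. Among the 68, self-ligated PETs ended 4 calls (DVL2-KDM6B 1.31, ESYT1 1.29 and MKNK2 1.63 over SW480, ZBTB46-TPD52L2 1.82 over HCT116) and added 6. Loops matched at both anchors added 10, where SW620 keeps all its loops by construction. Calls ended per chromosome included TRAF7 over SW480 (1.04) and MKNK2 over SW480 (1.64). No paired analysis was possible because each line had 1 library, so the lines share only 1 replicate number. The depth of SW480 limits every ratio to it, since 1 PET there equals 72.0 normalised PETs.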
